A study of Mus musculus with 3 samples.

Results

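The genes Slc2a2, G6pc2, Mlxipl and Txnip, which serve glucose uptake and glucose sensing in pancreatic beta cells, were examined for accessible chromatin in mouse islets, 4 genes of 22359 protein-coding genes with an annotated start. They were chosen by name, and every ATAC-seq peak over a gene body or within 50 kb on either side of it was taken. These windows held 43 of 60898 peaks in the WT list, 38 of 150354 peaks in the list made 1 week after Taf4 inactivation and 58 of 151725 peaks in the 5 week list. In this assay a transposase cuts and tags DNA that is not packed away in nucleosomes, so stretches with many reads are open chromatin.

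The cells came from isolated Langerhans islets of mice of the strain labelled C5LBl6, with 1 library labelled wild type (WT), 1 labelled Taf4 KO 1 week and 1 labelled Taf4 KO 5 weeks. Taf4 belongs to TFIID, the complex that places RNA polymerase II at promoters. According to the study, adult animals of both genotypes carried an Ins1::Cre-ERT2 transgene and received tamoxifen, and only the KO animals had floxed Taf4 alleles. By staining, the study found Taf4 lost from beta cells and kept in glucagon-expressing cells. Its staining of Taf4 in other islet cell types was not described. The lists were made from all dissociated islet cells, so fewer cells of a type and less open chromatin per cell cannot be told apart. No group was replicated. Values are therefore set side by side without a p-value, intervals cover counting error only, and a difference between lists is one between libraries.

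The lists differed in the background read level recovered from them, which was 3.66 reads in WT, 6.45 at 1 week and 9.38 at 5 weeks, that is 1.76 and 2.57 times the WT value. Chromosome X held 2.09% of the WT peaks, 8.13% of the 1 week peaks and 0.956% of the 5 week peaks. Chromosome Y held 0 peaks in WT, 0 at 1 week and 44 at 5 weeks. The part of these differences in the results was not tested. None of the 4 genes lies on chromosome X or Y. All 7 beta cell marker genes examined had a promoter peak in each list, as did 3 of 4 alpha cell markers and 1 of 3 delta cell markers in WT. The 1 week list had 4 and 2 of these and the 5 week list 4 and 3. In the same order of lists, acinar markers had promoter peaks in 0, 0 and 1 of 4 cases, endothelial markers in 0, 1 and 2 of 3 and immune markers in 0, 1 and 0 of 3. Over all protein-coding genes the shares with a promoter peak were 59.0%, 55.9% and 65.6%. Of all genes without one in WT, 13.3% had one at 1 week and 18.9% at 5 weeks.

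Slc2a2 encodes GLUT2, the transporter through which glucose enters the rodent beta cell. Inside the cell the glucose is phosphorylated, and G6pc2, the islet form of the catalytic subunit of glucose-6-phosphatase, reverses that step and so tempers glucose sensing. Mlxipl encodes ChREBP, a transcription factor that is activated by glucose metabolites and binds carbohydrate response elements, each a pair of E-box-like sequences. Txnip, the thioredoxin-interacting protein, is among the genes most strongly induced by glucose in beta cells, through such an element, and it restrains thioredoxin and glucose uptake.

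All positions are on mm9, and all 4 genes are transcribed from the plus strand. Slc2a2 (ENSMUSG00000027690) lies on chromosome 3 from 28596825 to 28627278, and G6pc2 (ENSMUSG00000005232) on chromosome 2 from 69049130 to 69065898. The first protein-coding start of G6pc2 is at 69058028, inside an intron of a longer annotated transcript, and its positions are counted from there. Mlxipl (ENSMUSG00000005373) lies on chromosome 5 from 135582761 to 135614254 with its first coding transcript starting at 135582772, and further coding starts at 135609480 and 135609501. Txnip (ENSMUSG00000038393) lies on chromosome 3 from 96361880 to 96365806, and the annotated lincRNA Gm15441 overlaps it.

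The 300 bases before each start are printed because the first result below is about the promoter calls of these genes. Capitals mark the motifs that were found, with positions counted from the start, the last base before it being -1.
Slc2a2 promoter, chr3:28596525-28596824, plus strand: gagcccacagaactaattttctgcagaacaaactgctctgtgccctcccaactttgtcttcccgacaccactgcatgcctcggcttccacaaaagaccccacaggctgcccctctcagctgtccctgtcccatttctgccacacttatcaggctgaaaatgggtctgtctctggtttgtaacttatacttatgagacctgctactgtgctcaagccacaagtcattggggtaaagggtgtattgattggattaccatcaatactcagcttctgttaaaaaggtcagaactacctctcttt
G6pc2 promoter, chr2:69057728-69058027, plus strand: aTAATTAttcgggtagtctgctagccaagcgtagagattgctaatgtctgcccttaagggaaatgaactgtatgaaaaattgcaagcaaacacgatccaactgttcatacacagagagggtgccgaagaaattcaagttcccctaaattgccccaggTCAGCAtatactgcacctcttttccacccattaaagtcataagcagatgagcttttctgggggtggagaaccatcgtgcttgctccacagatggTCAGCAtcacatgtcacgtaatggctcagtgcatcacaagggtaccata
Mlxipl promoter, chr5:135582472-135582771, plus strand: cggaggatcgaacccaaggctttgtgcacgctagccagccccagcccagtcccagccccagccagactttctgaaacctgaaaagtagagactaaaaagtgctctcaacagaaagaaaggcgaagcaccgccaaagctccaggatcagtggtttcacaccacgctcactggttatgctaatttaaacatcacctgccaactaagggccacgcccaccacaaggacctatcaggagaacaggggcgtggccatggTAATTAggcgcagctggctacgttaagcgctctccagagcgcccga
Txnip promoter, chr3:96361580-96361879, plus strand: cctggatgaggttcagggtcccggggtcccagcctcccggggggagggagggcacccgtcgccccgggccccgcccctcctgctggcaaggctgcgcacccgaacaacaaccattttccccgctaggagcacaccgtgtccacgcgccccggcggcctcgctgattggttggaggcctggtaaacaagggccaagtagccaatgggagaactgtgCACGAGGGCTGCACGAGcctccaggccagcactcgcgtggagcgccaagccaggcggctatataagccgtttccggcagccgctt

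These promoters shared few of the searched letters. Both strands were searched for the E-box, which reads CACGTG. The homeodomain core that was searched for reads TAATTA. The letters taken for factors of the Hnf1 family were GTTAAT. Those taken for factors of the Maf family were TGCTGA. The TATA box was searched for as TATAAA, and a perfect carbohydrate response element as E-boxes 5 bp apart. None of these was found in the Slc2a2 promoter. The G6pc2 promoter held TAATTA from -299 to -294 and the Maf letters, read as TCAGCA on the plus strand, from -143 to -138 and from -49 to -44. The Mlxipl promoter held TAATTA from -46 to -41. The Txnip promoter held none of these exact letters. It does hold tatataag, a variant of the TATA letters that was not searched for. It also held 2 CACGAG boxes 5 bp apart, from -85 to -69. These CACGAG letters were searched for only after the sequence had been seen. Among all 22359 promoters of this length, the homeodomain core occurred in 5.68%, the Maf letters in 17.6%, the Hnf1 letters in 7.14%, the TATA box in 14.5% and the E-box in 7.41%. The perfect pair occurred in 1 promoter (0.00447%), and the CACGAG pair in 1 as well, that of Txnip itself. GC content ranged from 45.3% in G6pc2 and 47.7% in Slc2a2 to 55% in Mlxipl and 68% in Txnip. A match here is a stretch of letters and not an occupied site.

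**Figure D1:**
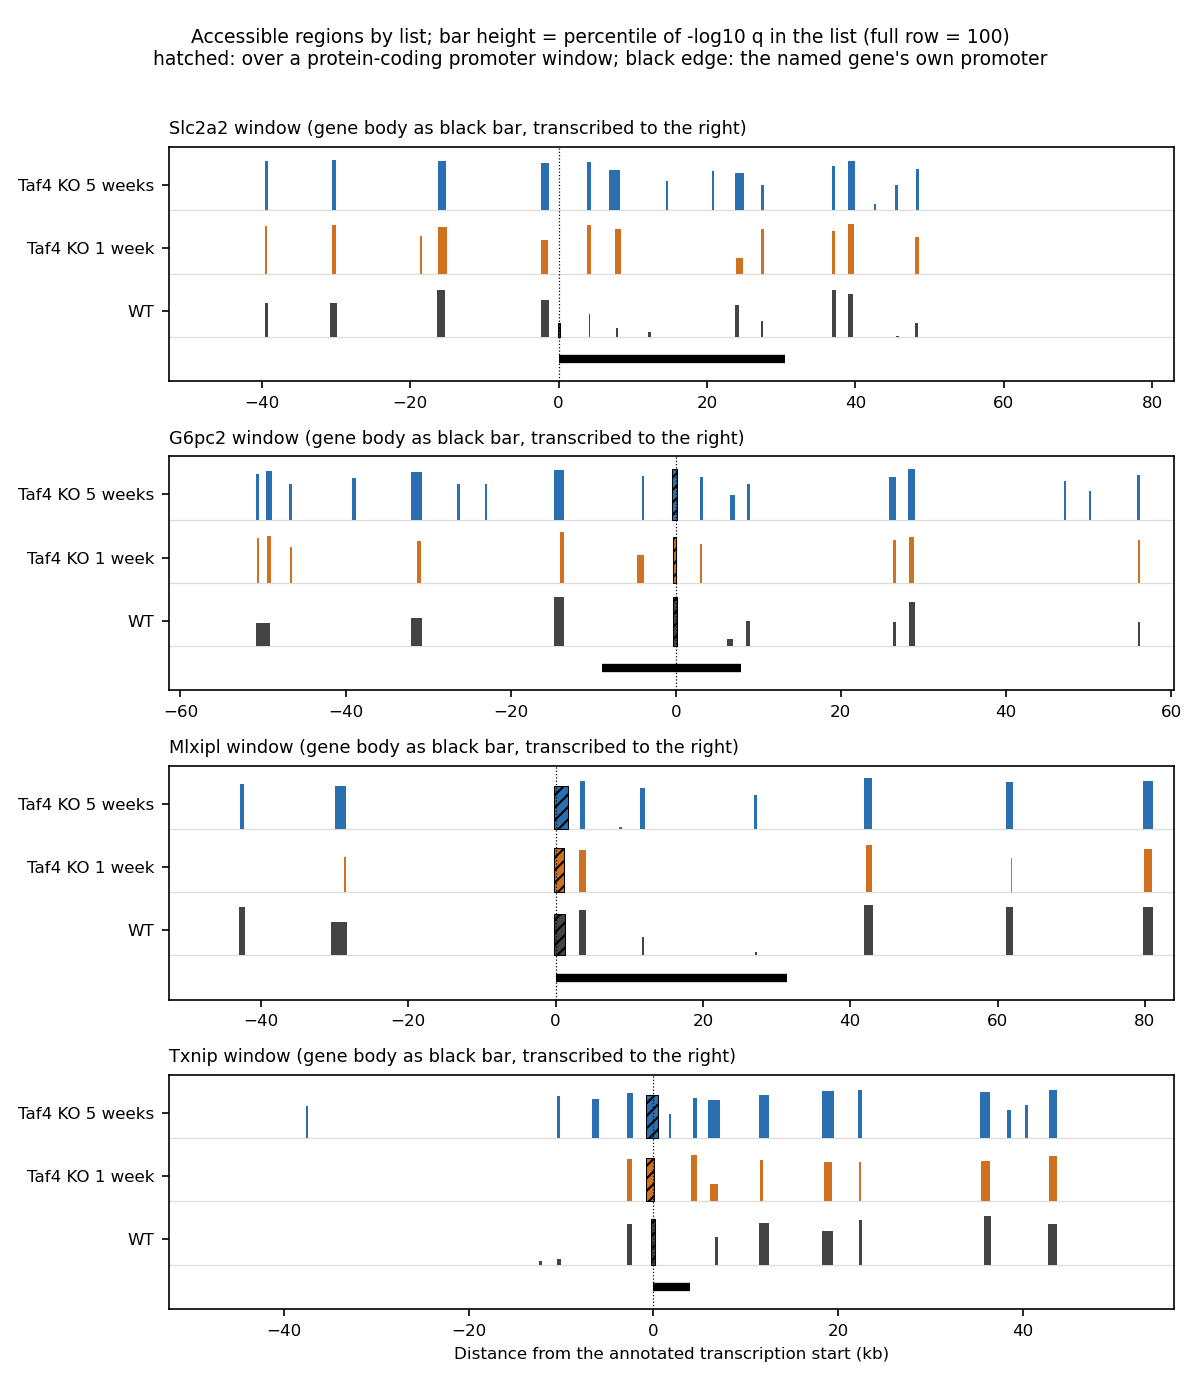
Peaks of the 4 gene windows in each list, drawn to scale by distance from the annotated start in kb, with the height of a bar giving the percentile of its -log10 q within its own list. Hatched bars lie over the promoter window of a protein-coding gene and black edges mark the promoter of the named gene. The Slc2a2 promoter bar is present in the WT row only, while the promoter bars of G6pc2, Mlxipl and Txnip are present in all 3 rows.

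A promoter peak, one that overlaps the stretch from 1000 bp before to 100 bp after an annotated start, was called at all 4 genes in WT. Both Taf4 KO lists had one at 3 of them and none at Slc2a2. Over all protein-coding genes a promoter peak was called for 59.0% in WT, against 55.9% at 1 week and 65.6% at 5 weeks. Of genes with a promoter peak in WT, 14.5% had none at 1 week, 1.89% had none at 5 weeks and 1.69% had none in both Taf4 KO lists.

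The Slc2a2 promoter peak was weak in WT. It ran from 28596750 to 28597058 over the start with its midpoint in the 5′ UTR, was 309 bp wide, and had a fold over the local background of 2.05 and a -log10 q of 2.15. This put it at the 26.6 percentile of the WT list, where 100 is the most significant peak, and at the 6.23 percentile of the WT promoter peaks. The pileup behind it was not low, at 8.34 times the background floor of the WT list, against a median of 10.01 for WT promoter peaks. Its local background was 3.93 times the floor, against a median of 2.04, so the small fold goes with a high local background. Weak WT calls elsewhere were missing more often at 1 week than at 5 weeks. Of 296 genes whose WT promoter peak lay between the 20 and 30 percentile, 47.0% had none at 1 week, 11.8% had none at 5 weeks and 10.8% had none in both. The region around Slc2a2 is poor in GC, at 41.7% over 1 Mb, which is in the lowest of 5 equal groups of genes. In that group 2.84% of WT promoter peaks were missing at 1 week and 1.33% at 5 weeks, and of its 70 genes in the same range of WT percentiles 12.9% had none at 1 week, 7.14% had none at 5 weeks and 5.71% had none in both. Where peaks under a -log10 q of 3 were dropped, the Slc2a2 promoter was without a call in WT too. With a window from 2000 bp before to 500 bp after the start, Slc2a2 was called in all 3 lists, through the neighbouring upstream region.

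Accessible regions on both sides of the Slc2a2 promoter were called in every list. The upstream one has its midpoint at -1.79 kb. Its -log10 q was 7.45 in WT (72.5 percentile), 2.67 at 1 week (65.6 percentile) and 16.5 at 5 weeks (93.5 percentile). The downstream one, in an intron of Slc2a2 at 4.08 kb, had a -log10 q of 3.29 in WT (45.3 percentile), 11.1 at 1 week (95.7 percentile) and 20.2 at 5 weeks (96.1 percentile). Its place within the list was thus higher in both Taf4 KO lists than in WT, while its pileup over the floor was 7.49 in WT, against 5.75 at 1 week and 7.45 at 5 weeks. The central 200 bases of the stretch called in all 3 lists are printed for both, since they flank the promoter call that differed. Positions in them are counted from 1 at the first base.
Slc2a2 upstream region, chr3:28594873-28595072, plus strand: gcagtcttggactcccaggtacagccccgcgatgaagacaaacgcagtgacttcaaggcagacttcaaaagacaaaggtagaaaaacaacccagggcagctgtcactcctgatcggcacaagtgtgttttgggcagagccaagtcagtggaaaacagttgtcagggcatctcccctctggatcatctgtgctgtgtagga
Slc2a2 first intronic region, chr3:28600879-28601078, plus strand: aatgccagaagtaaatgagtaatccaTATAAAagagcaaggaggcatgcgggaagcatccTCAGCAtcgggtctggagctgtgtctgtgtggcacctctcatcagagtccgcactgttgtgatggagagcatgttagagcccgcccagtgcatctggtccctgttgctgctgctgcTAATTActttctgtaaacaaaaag

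The intronic stretch held the TATA box from 27 to 32, the Maf letters from 61 to 66 and the homeodomain core from 177 to 182, and the upstream stretch held none of the searched letters. In the central 200 bases of all WT peaks outside promoters the TATA box occurred in 6.39%, the Maf letters in 21.0% and the homeodomain core in 5.04%.

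By -log10 q and fold, the G6pc2 promoter had the strongest promoter peak of the 4 genes in each list. It ran from 69057664 to 69058201 in WT, from 69057656 to 69058103 at 1 week and from 69057604 to 69058156 at 5 weeks. Its fold was 6.87 in WT, against 3.87 at 1 week and 5.81 at 5 weeks. The -log10 q was 25.1 in WT (97.9 percentile), 7.83 at 1 week (91.5 percentile) and 35.4 at 5 weeks (99.7 percentile). The pileup over the floor was 13.9 in WT, against 4.48 at 1 week and 9.10 at 5 weeks, so by this measure both Taf4 KO values lay under the WT value, whereas the percentile was lower at 1 week only. The local background over the floor was 1.78, 1.04 and 1.48 in the same order.

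At Mlxipl the promoter peak covered the start and the first part of the gene, from 135582532 to 135584039 in WT, from 135582571 to 135583895 at 1 week and from 135582530 to 135584484 at 5 weeks. The fold was 3.02 in WT, against 3.36 at 1 week and 2.62 at 5 weeks. The -log10 q was 10.4 in WT (81.5 percentile), 6.08 at 1 week (87.6 percentile) and 9.38 at 5 weeks (84.1 percentile). By percentile of the whole list this is a place above that of WT at both times. Among promoter peaks only, this peak stood at the 47.7 percentile in WT, at 52.6 at 1 week and at 39.6 at 5 weeks. By that measure it was lower than in WT at 5 weeks. Its pileup over the floor was 15.5 in WT and, in the order of time, 4.24 and 6.76 in the Taf4 KO lists, and the local background over the floor was 4.94, 1.15 and 2.52.

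The Txnip promoter peak ran from 96361603 to 96362075 in WT, from 96361053 to 96361988 at 1 week and from 96361060 to 96362346 at 5 weeks, so it reached further upstream in both Taf4 KO lists. All of these peaks take in the CACGAG pair. Its fold was 3.92 in WT, against 2.98 at 1 week and 2.71 at 5 weeks. The -log10 q was 15.4 in WT (90.5 percentile), 5.63 at 1 week (86.2 percentile) and 9.49 at 5 weeks (84.3 percentile). Txnip was the only one of the 4 genes whose promoter peak had a lower percentile than in WT at both times while still being called. Counted by rank from the strongest peak of each list, however, both Txnip (5762 in WT, 20688 and 23840 after Taf4 loss) and Mlxipl (11257, 18702 and 24161) stood lower at both times, and G6pc2 (1283, 12817 and 503) stood lower at 1 week only. The pileup over the floor at Txnip was 15.5 in WT, against 4.84 at 1 week and 6.45 at 5 weeks, and the local background over the floor was 3.75, 1.52 and 2.31.

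Lower pileup over the floor in both Taf4 KO lists was also found for the lists as a whole. The median over all promoter peaks was 10.01 in WT, against 4.20 at 1 week and 5.13 at 5 weeks, and that of the local background over the floor was 2.04, 1.10 and 1.23. The measure is approximate, since it was recovered from values that the peak caller averages over a peak.

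**Figure D2:**
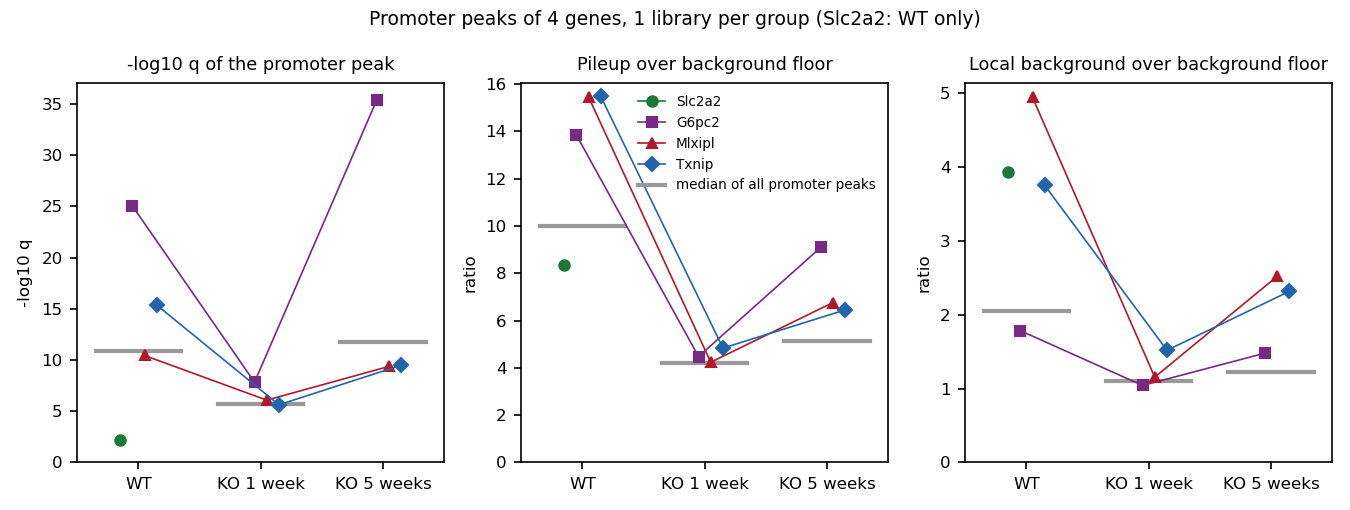
The -log10 q of the promoter peak of each gene (left), its pileup over the background floor (middle) and its local background over the floor (right), by list, 1 library per group, with grey bars for the median of all promoter peaks of the list. Slc2a2 has a point in WT only, G6pc2 has the highest -log10 q in each list, and the pileup over the floor of G6pc2, Mlxipl and Txnip is highest in WT, as is the grey median.

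The number of peaks per window differed between the lists in ways that were not alike from gene to gene. The Slc2a2 window held 14 peaks in WT, 12 at 1 week and 15 at 5 weeks. The G6pc2 window held 9, 11 and 18, the Mlxipl window 10, 6 and 10, and the Txnip window 10, 9 and 15. Fewer peaks than in WT were thus found at 1 week for 3 of the 4 genes and at 5 weeks for none. Of the 19372 gene windows with a WT peak, 58.2% held fewer at 1 week and 19.5% fewer at 5 weeks. Summed over the 4 windows, the ratio to WT was 0.884 at 1 week (exact 95% interval 0.556 to 1.4) and 1.35 at 5 weeks (0.894 to 2.05), so both intervals include 1. Where peaks under a -log10 q of 5 were dropped, the 5 week interval was 1.04 to 3.02. The ratios compare with medians of 0.8 and 1.2 over all gene windows. The ratios over all windows differed by local GC content. At 1 week the median was 2 in the least GC-rich group and 0.5 in the most GC-rich group. At 5 weeks these medians were 1.67 and 1.09. Slc2a2 belongs to the least GC-rich group, G6pc2 (42.1% GC) to the next, Txnip (45.4%) to the middle group and Mlxipl (48.5%) to the most GC-rich group, and the part of GC content in these counts was not tested.

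**Figure D3:**
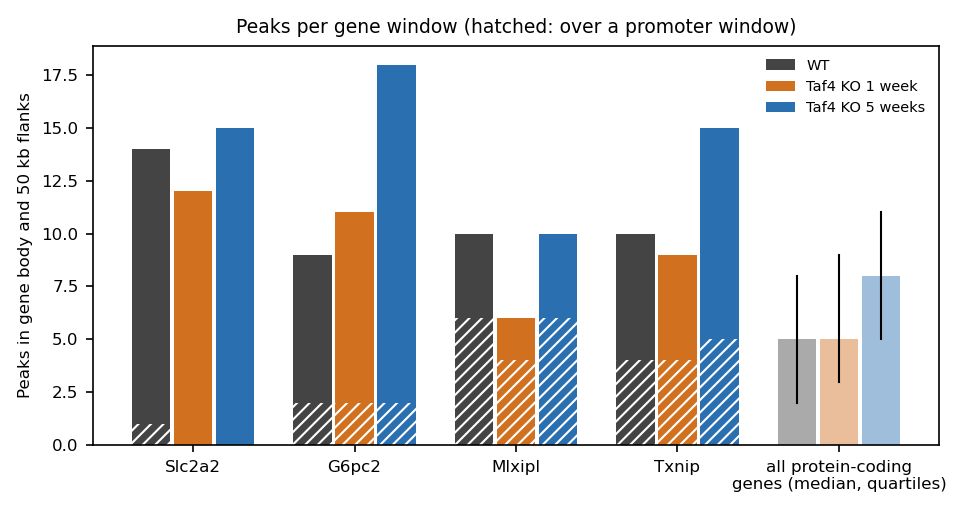
Peaks in the window of each gene by list, with the hatched part of a bar giving the peaks over a promoter window, beside the median over all protein-coding genes with lines for the quartiles. Mlxipl has 6 peaks at 1 week against 10 in the other lists, and G6pc2 has 18 at 5 weeks against 9 in WT.

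Merged over the lists, the windows held 62 regions, 18 at Slc2a2, 17 at G6pc2, 11 at Mlxipl and 16 at Txnip. Of these, 32 (51.6%) were called in all 3 lists, against 15.7% of all regions of the genome and 22.5% of regions near protein-coding genes. The regions called in all lists numbered 11 at Slc2a2, 7 at G6pc2, 6 at Mlxipl and 8 at Txnip. WT and 5 weeks shared 7 further regions (11.3%, against 4.88% of all regions and 7.27% of those near protein-coding genes). The 1 week and 5 week lists shared 4 (6.45%, against 17.9% and 14.8%). There were 14 regions called at 5 weeks only (22.6%, against 26.2% in both cases). A further 4 were called in WT only (6.45%, against 4.91% and 6.999%) and 1 at 1 week only (1.61%, against 30.01% and 21.7%). The share called at 1 week only was thus well under both comparison shares. No region was shared by WT and 1 week alone. The 4 regions called in WT only were the Slc2a2 promoter at the 26.6 percentile, an intronic region of Slc2a2 at the 8.64 percentile, a region over a coding exon of Mlxipl at the 1.33 percentile and a region upstream of Txnip, at -12.2 kb, at the 6.55 percentile. They are named here after their values were seen, and all stand in the lower part of the WT list.

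Of the 43 WT peaks, 32 were overlapped by a 1 week peak (74.4%, Wilson 95% interval 59.8 to 85.1) and 39 by a 5 week peak (90.7%, 78.4 to 96.3). The shares over all WT peaks were 61.9% and 79.5%. Among the 13 WT peaks of the windows that lie over a promoter, 11 were overlapped at 1 week (84.6%) and 12 at 5 weeks (92.3%), against 85.5% and 97.5% of all WT promoter peaks. Among the other 30 peaks, 21 were overlapped at 1 week (70%) and 27 at 5 weeks (90%), against 55.5% and 74.6% of all WT peaks outside promoters. With a reciprocal overlap of 50% the shares over the windows were 48.8% and 72.1%.

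By percentile of the -log10 q within the list, 14 of the 32 WT peaks found again at 1 week ranked lower there (43.8%, 28.2 to 60.7), and 6 of the 39 found again at 5 weeks did (15.4%, 7.25 to 29.7). Over all WT peaks found again, 19.7% ranked lower at 1 week and 10.7% at 5 weeks. Both Taf4 KO lists are longer than the WT list, and a list with more weak peaks gives a region of the same rank a higher percentile. Counted by rank from the strongest peak instead, 65.6% ranked lower at 1 week and 48.7% at 5 weeks, against 54.4% and 59.4% of all WT peaks found again. By pileup over the floor, a measure added after the data had been seen, 32 of 32 peaks were lower at 1 week and 32 of 39 at 5 weeks, against 84.6% and 88.0% of all WT peaks found again. The direction therefore depended on how peaks were ranked, for the 1 week list and, by pileup over the floor, for the 5 week list.

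Promoter and distal regions stood apart in the WT list and had close medians in both Taf4 KO lists. Over the 11 regions called in all 3 lists whose WT peak lies over a promoter, the median percentile was 94.96 in WT, against 86.2 at 1 week and 93.5 at 5 weeks. Over the 21 regions outside promoters it was 66.8 in WT, against 84.1 at 1 week and 93.5 at 5 weeks, and 20 of the 21 stood higher at 5 weeks than in WT. Over all WT peaks outside promoters that were found again at 5 weeks, 8.21% stood lower there, so a higher place was common to the list as a whole. The median width of these 21 regions was 495 bp in WT, 513 bp at 1 week and 708 bp at 5 weeks, and their median fold was 3.41, 3.24 and 3.92. The Slc2a2 window holds 11 of the 21 and none of the promoter regions, whereas the Mlxipl window holds 1 of the 21. Promoter or distal position can therefore not be told apart here from gene or local GC content.

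**Figure D4:**
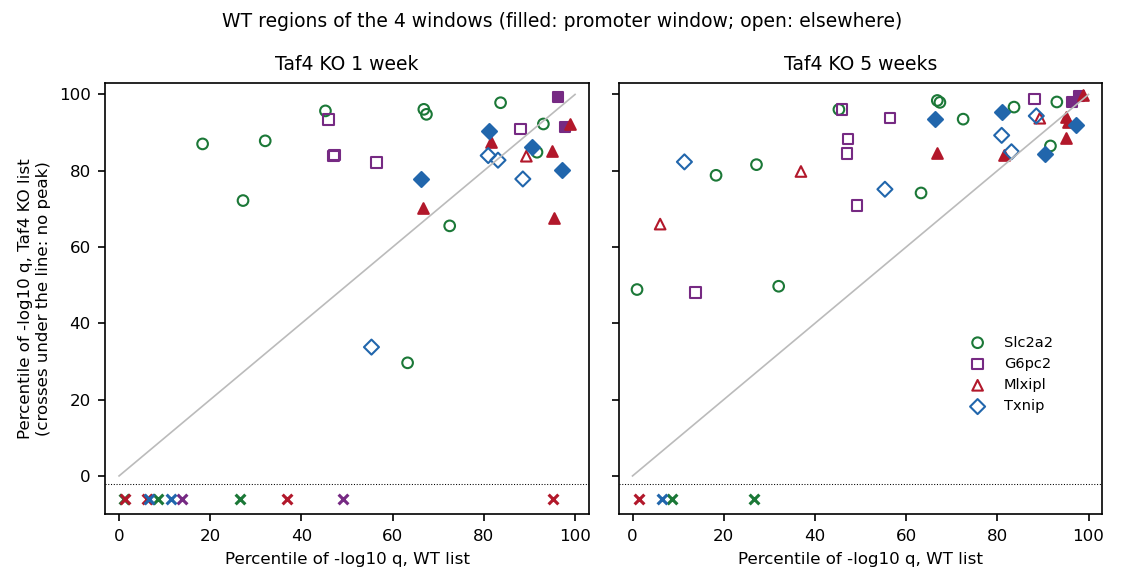
Percentile of the -log10 q of each WT region of the 4 windows in the WT list (horizontal) and in the 1 week list (left) or the 5 week list (right), filled symbols for promoter windows, open symbols for other regions and crosses under the dotted line for regions with no peak. At 5 weeks 26 of the 27 open symbols lie above the diagonal.

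The strongest distal regions of the 4 windows in WT and at 1 week lay at Slc2a2. A region between Tnik and Slc2a2 at -15.7 kb had the highest -log10 q of the window in WT, 17.6 (93.1 percentile), and one of 8.28 at 1 week (92.3 percentile) and 24.9 at 5 weeks (98.0 percentile). A pair of regions in an intron of the neighbouring gene Tnik, at -39.4 and -30.3 kb, stood at the 67.4 and 66.8 percentile in WT, at 94.8 and 96.1 in the 1 week list and at 97.9 and 98.4 in the 5 week list. Downstream of the gene, a region at 39.5 kb had a -log10 q of 11.4 in WT, against 14.4 at 1 week and 21.3 at 5 weeks, and a region at 37.1 kb had one of 16.3, 5.21 and 10.7. Within the gene, regions with midpoints in introns, at 7.63, 24.4 and 27.5 kb, were called in all 3 lists as well. At 7.63 kb the WT peak itself has its midpoint in a coding exon. The region at 7.63 kb stood at the 18.3 percentile in WT, at 87.0 in the 1 week list and at 78.8 in the 5 week list. The region at 24.4 kb stood at 63.3, 29.7 and 74.2, and the one at 27.5 kb at 32.1, 87.8 and 49.7. The transcription start of Slc2a2 was thus without a call in both Taf4 KO lists, although 11 of the 18 regions of its window were called in every list.

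The G6pc2 window had the most peaks at 5 weeks of the 4 windows. Regions with midpoints in introns of G6pc2, at -4.26 and 3.08 kb, were called in both Taf4 KO lists and not in WT. They were chosen for mention after their values were seen. Their percentiles were 54.0 and 77.5 at 1 week and 85.5 and 84.0 at 5 weeks. A region in an intron of Nostrin at -49.9 kb stood at the 45.9 percentile in WT, at 93.4 in the 1 week list and at 96.1 in the 5 week list. The promoter of the neighbour Spc25 stood at 96.3, 99.4 and 98.1. The strongest distal region of this window in WT and at 5 weeks lay in an intron of Abcb11 at 28.6 kb. Its -log10 q was 13.7 in WT (88.1 percentile), 7.54 at 1 week (90.9 percentile) and 28.3 at 5 weeks (98.8 percentile), the highest of any distal region of the 4 windows at 5 weeks. Its central 200 bases hold the Maf letters at 56 to 61 and at 120 to 125, as does the G6pc2 promoter in other places.
G6pc2 downstream region in Abcb11, chr2:69086495-69086694, plus strand: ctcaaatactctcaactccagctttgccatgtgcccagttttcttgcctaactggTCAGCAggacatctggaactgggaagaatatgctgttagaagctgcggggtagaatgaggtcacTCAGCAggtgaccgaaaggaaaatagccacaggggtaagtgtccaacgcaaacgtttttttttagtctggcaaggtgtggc

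The Mlxipl window held the fewest distal regions. Only 1 region outside promoters was called in all 3 lists, in an intron of Mlxipl at 3.61 kb, with a -log10 q of 14.5 in WT (89.3 percentile), 4.93 at 1 week (83.8 percentile) and 16.9 at 5 weeks (93.8 percentile). Its central 200 bases hold none of the searched letters.
Mlxipl intronic region, chr5:135586350-135586549, plus strand: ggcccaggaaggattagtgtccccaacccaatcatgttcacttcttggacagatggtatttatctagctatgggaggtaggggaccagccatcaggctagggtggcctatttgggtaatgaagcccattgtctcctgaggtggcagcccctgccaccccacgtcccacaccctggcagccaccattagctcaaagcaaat

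The promoters of Vps37d, Tbl2 and Baz1b in the Mlxipl window were called in every list, as was that of Mlxipl itself. The promoter of Tbl2 stood at 98.8 in WT, against 92.1 at 1 week and 99.7 at 5 weeks. The promoter of Bcl7b was called in WT (95.4 percentile) and at 5 weeks (92.7 percentile), and the 1 week peak of that region lay in an intron of Bcl7b outside the promoter window, at the 67.7 percentile. The region over the promoters of Dnajc30 and Wbscr22 had a -log10 q of 19.99 in WT (95.1 percentile), no peak at 1 week and one of 12.1 at 5 weeks (88.6 percentile). In the most GC-rich group of genes, to which Mlxipl belongs, 30.7% of WT promoter peaks of any strength were missing at 1 week and 1.93% at 5 weeks. Of 4884 genes of any GC content whose WT promoter peak lay between the 90 and 100 percentile, 4.20% had none at 1 week.

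Around Txnip the regions called in all lists followed the gene on both sides. The region upstream of it at -2.58 kb had a -log10 q of 10.2 in WT (81.0 percentile), 4.98 at 1 week (84.0 percentile) and 12.6 at 5 weeks (89.3 percentile). A region at 22.4 kb, over a coding exon of Gm16253 and an intron of Polr3gl, was the strongest outside promoters in WT, with a -log10 q of 13.9 (88.5 percentile), followed by 3.75 at 1 week (77.8 percentile) and 17.6 at 5 weeks (94.4 percentile). The promoters of Gm16253, Polr3gl and Lix1l were also called in all 3 lists, and that of Ankrd34a at 5 weeks only. A region within Gm15441 at 4.43 kb was called in both Taf4 KO lists and not in WT. Its -log10 q was 8.17 at 1 week (92.1 percentile), the highest of the window in that list, and 7.30 at 5 weeks (79.3 percentile). It was chosen for mention after its values were seen. The central 200 bases of the upstream region are shown as the nearest distal sequence to the Txnip promoter, with TATAAA at 151 to 156.
Txnip upstream region, chr3:96359198-96359397, plus strand: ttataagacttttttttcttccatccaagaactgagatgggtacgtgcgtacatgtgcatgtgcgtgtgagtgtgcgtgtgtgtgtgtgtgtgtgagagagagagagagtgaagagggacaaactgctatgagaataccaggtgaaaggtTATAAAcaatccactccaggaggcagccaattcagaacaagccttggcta

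Other genes of glucose handling were taken as a list of 37 genes, all found in the annotation. A promoter peak was called for 34 of them in WT, against 32 at 1 week and 35 at 5 weeks, and for 31 in all 3 lists. Gckr, which encodes a regulatory protein of the liver, and G6pc, the liver form of the glucose-6-phosphatase catalytic subunit, had none in any list. Among the 31 genes called in every list the median percentile was 87.4 in WT, against 90.3 at 1 week and 93.3 at 5 weeks. Compared with WT, 12 of them stood lower at 1 week and 4 did so at 5 weeks. Of all WT promoter peaks found again, 37.5% stood lower at 1 week and 17.9% at 5 weeks.

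Calls differed between lists for 4 of these genes. G6pc3, the widely expressed form of the glucose-6-phosphatase catalytic subunit, Mlx, the dimerization partner of ChREBP, and Acacb, an acetyl-CoA carboxylase, were called in WT and at 5 weeks and not at 1 week. Their promoter -log10 q was 7.16, 4.56 and 8.36 in WT and 6.04, 8.23 and 10.3 at 5 weeks. Over all protein-coding genes, 14.5% of those called in WT lacked the call at 1 week. This share was 30.7% in the most GC-rich group, which holds G6pc3 and Acacb. It was 20.1% in the group next to it, which holds Mlx. The part of GC content in these missing calls was not tested. Ldha, the lactate dehydrogenase subunit that is kept low in beta cells, had no promoter peak in WT and one at 1 week (-log10 q 2.20) and at 5 weeks (4.83). Of all genes without a WT promoter peak, 13.3% had one at 1 week and 18.9% at 5 weeks.

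By role, the genes of glucose entry and phosphorylation were called in 7 of 9 cases in WT, 6 at 1 week and 7 at 5 weeks. In the same order, the partners and targets of ChREBP were called in 10, 8 and 10 of 10, those of glycolysis and pyruvate use in 13, 14 and 14 of 14, and those of the thioredoxin system in 4 of 4 in each list. Slc2a1 and Slc2a3, the other glucose transporters of the list, were called in every list, unlike Slc2a2, and are named after their values were seen. Slc2a1 stood at 78.5 in WT, 90.5 at 1 week and 87.4 at 5 weeks. Slc2a3 stood at 66.7, 87.6 and 81.4.

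**Figure D5:**
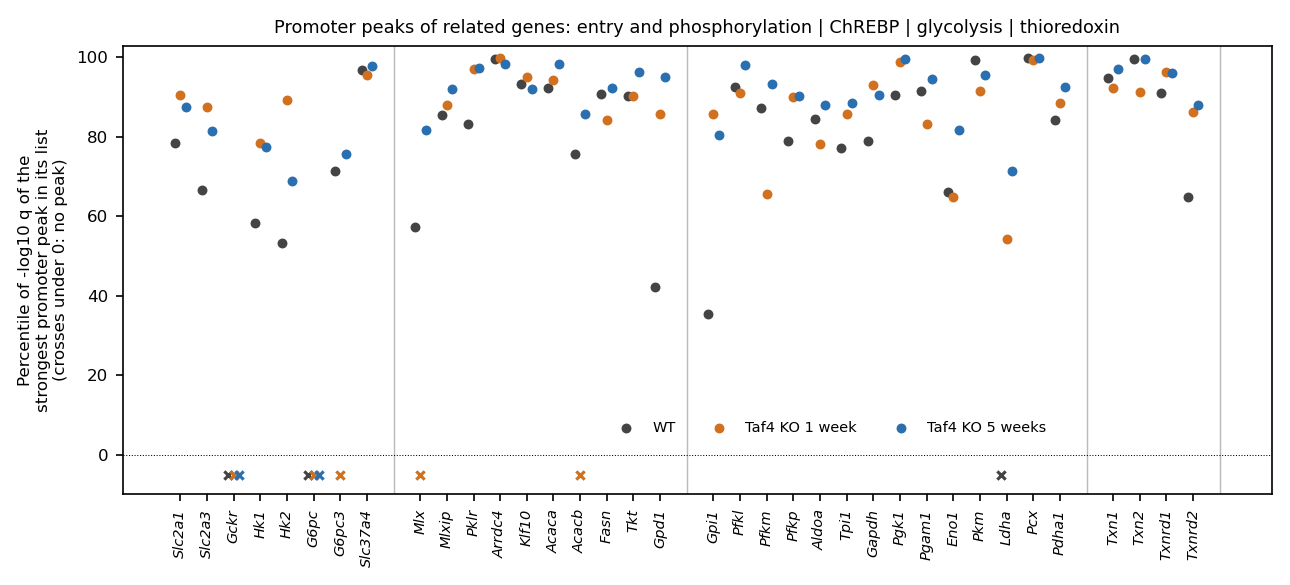
Percentile of the -log10 q of the strongest promoter peak of listed genes of glucose entry, the ChREBP pathway, glycolysis and the thioredoxin system, from left to right, by list, with crosses under 0 for no peak. Crosses stand at all 3 lists for Gckr and G6pc, at 1 week for G6pc3, Mlx and Acacb, and in WT for Ldha.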

How the data were processed

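ATAC-seq peak lists of 3 libraries were used, grouped by the genotype and time labels. The authors mapped reads to mm9 with Bowtie 1.0.0, keeping unique alignments, and called peaks on each library with MACS2 2.1.1. Each line of the deposited lists holds a fold over the local background, which is a ratio, beside a -log10 p and a -log10 q. The score column was not used. Duplicate removal, a shift to the insertion site and read totals are not given in the sources used here. Longer read extension or more reads would give more and weaker peaks, so values were ranked within their own list.

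Genes and starts came from GENCODE M1 and sequences from NCBIM37, the same build. Windows were gene bodies with 50 kb flanks. A promoter window took 1000 bp before and 100 bp after each of 46015 protein-coding starts. Peaks were shared from 1 bp of overlap, and 2 mitochondrial peaks per list were left out. The pileup and local background of a peak were solved from its fold and p, and the 1st percentile of the background was taken as the floor of a list, assuming equal read extension. This recovery was checked on simulated data built with the same formulas and a single pileup per peak. That check cannot show how well the recovery works on values averaged over a peak. Intervals of shares are Wilson 95% intervals.

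The genes and lists were chosen with earlier results of these data known. The 4 genes were always named, with every listed gene whose promoter call differed, neighbouring genes under a peak, and peaks at the promoter, among the 5 strongest of a list outside promoters, or called in all lists inside the gene. The regions nearest upstream of Slc2a2 and Txnip were added after their values were seen. Marker and pathway genes were described by promoter peaks only, and 1 pathway gene that enters the counts is not reported here. Alternatives changed the minimum q, list length, depth scaling, window, flank, overlap and ranking. Python 3.11.15, pandas 2.3.3, NumPy 2.4.6, SciPy 1.17.1, pysam 0.24.0 and matplotlib 3.10.9 were used.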

Additional observations from a re-analysis of the deposited data

Results flagged for a closer look

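At 4 flagged places, among them the sum over all windows, the 1 week and 5 week lists moved in opposite directions from the same WT library. Other peaks described above did so too, such as that of the Tbl2 promoter, so the flagged places are not the only ones. These differences were not tested, since each group has 1 library and both comparisons share the WT list. The Slc2a2 window went from 14 peaks in WT to 12 at 1 week and 15 at 5 weeks, a gap of 3 peaks between the Taf4 KO lists. The Txnip window went from 10 to 9 and 15, a gap of 6. All 4 windows together went from 43 to 38 and 58, a gap of 20. Over all gene windows the median ratio to WT was 0.8 at 1 week and 1.2 at 5 weeks, so the same directions were found there. The G6pc2 promoter peak went from the 97.9 percentile in WT to 91.5 at 1 week and 99.7 at 5 weeks, a gap of 8.19 percentile points.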

How the results depend on the processing

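Of the values of the main comparisons recomputed under the alternatives, 63 stayed close to the main value, which for counts and ratios means within 1.5 times, 9 moved and 6 turned direction, that is, went to the other side of an equal split of higher and lower peaks. The ratios of window peak counts stayed within that range, but the 1 week ratio, 0.884, was 1 when peaks under a -log10 q of 3 were dropped, and the 5 week ratio, 1.35, was 1.75 (1.04 to 3.02) at 5. The WT count of genes with a promoter peak, 4, was 3 at both minimum values, equal to both Taf4 KO lists. The share of WT peaks overlapped at 1 week, 74.4%, was 54.2% when peaks under a -log10 q of 5 were dropped and 48.8% with a reciprocal overlap of 50%. At 5 weeks, 90.7% became 100% when peaks under 3 or 5 were dropped and 72.1% with the reciprocal overlap. The share ranked lower at 1 week, 43.8%, was 25% by percentile of the fold, and it turned to 63.3% in lists of equal number, 52.4% with a 20 kb flank, 65.6% by rank from the strongest peak, 53.1% by percentile among promoter or other peaks and 100% by pileup over the floor. At 5 weeks, 15.4% became 44.4% in lists of equal number, 48.7% by rank, 3.70% outside promoters and 82.1% by pileup over the floor, where it turned direction. The pileup setting was chosen after seeing the data. The causes were not tested, other than that lists of equal number and ranks from the top leave out of account the weak peaks of the longer lists. The Slc2a2 promoter call in WT was lost at both minimum values, and calls in both Taf4 KO lists appeared with the wider promoter window. No paired analysis was possible because each group has 1 library and the labels carry no replicate numbers. Read totals were not used here, so whether an absent peak means closed chromatin or too few reads was not tested.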
